A study of Mus musculus with 4 samples.

Results

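The genes of creatine synthesis, creatine uptake and creatine phosphorylation were followed in mouse colon epithelium with and without a villin-driven Cre recombinase acting on floxed Stat3. The 6 genes were Gatm and Gamt, the enzymes of synthesis, Slc6a8, the uptake transporter, and the creatine kinases Ckb, Ckm and Ckmt1. All probe sets annotated to exactly 1 gene, that gene being 1 of these 6, were taken, which gave 9 probe sets out of 45101 on the array and 6 genes out of 18193 with a named probe set. The genes were selected on earlier results of these arrays, namely the log2 intensities in the 4 arrays and above all the low Gatm signal in the Cre-positive group, so their differences between the groups are a description and carry no test. Each of 4 arrays held RNA from 1 mouse. In the Cre-negative group (2 mice, genotype Stat3floxflox VillinCre-) the floxed alleles were intact, and in the Cre-positive group (2 mice, genotype Stat3floxflox VillinCre+) Cre was under control of the promoter of villin, a brush border protein of intestinal epithelium, so immune and stromal cells in the samples keep Stat3. Both groups carried the floxed alleles. Both had drunk 2.5% dextran sodium sulphate (DSS), which injures the colon epithelium, for 5 days, so that all values come from DSS-treated mice. The labels used here state no age, sex or strain background, and no untreated or Cre-only mouse was analysed here.

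Creatine is made in a pair of steps. Gatm (glycine amidinotransferase) joins the amidino group of arginine to glycine in mitochondria, which releases ornithine, and Gamt (guanidinoacetate methyltransferase) then adds a methyl group from S-adenosylmethionine. Cells that do not make creatine take it up through Slc6a8, a sodium- and chloride-coupled transporter of the SLC6 family. Creatine kinases move a phosphate between ATP and creatine: Ckmt1 does so at the mitochondrial membrane, Ckb in the cytosol of many tissues including gut epithelium, and Ckm in the cytosol of muscle. In gut epithelium the kinases lie partly at cell junctions, where creatine phosphate serves as a local store of energy for the barrier.

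The values were the authors' GC-RMA intensities, a background-corrected and between-array normalized brightness of each probe set, taken here as log2. Median intensity lay between 9.14 and 9.42 in the 4 arrays, and correlations between arrays over the 12659 genes tested ranged from 0.981 to 0.994, the lowest involving Cre-positive array 1. The Cre-positive arrays correlated with each other at 0.984. Cre-positive array 2 was closer to Cre-negative arrays 1 and 2 (0.992 and 0.994), so the arrays did not group by genotype. Epithelial markers were bright: 9 of 9 passed the filter on dim probe sets (a mean above the 40th percentile, log2 2.81), and Epcam measured log2 14.67 and 14.69 in the Cre-negative arrays and 14.94 and 14.76 in the Cre-positive arrays. The targeted gene Stat3 measured, by its brightest probe set, log2 10.46 and 10.50 in Cre-negative arrays 1 and 2 and 9.28 and 8.16 in Cre-positive arrays 1 and 2, and by the second 9.72 and 10.05 against 8.37 and 8.24. Of the other two probe sets, one ran the other way, at 5.60 and 4.75 against 6.82 and 6.11, and the last was dim in all arrays. The labels do not say which probe sets fall in the deleted part, so whether any of them checks the deletion is unknown.

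Gatm was the member that stood apart. Its signal was log2 6.66 and 7.35 in Cre-negative arrays 1 and 2, against 3.73 and 5.48 in Cre-positive arrays 1 and 2. Both Cre-positive arrays therefore lay below both Cre-negative arrays, with a gap of 1.18 between the nearest values, and Cre-positive array 1 was the lowest. On the linear scale the intensities were 101 and 163 against 13.3 and 44.7. The group means were 7.01 ± 0.49 and 4.61 ± 1.24 (SD, n = 2 per group), a difference of -2.40 (limma SE 0.71), or 5.27-fold lower in the Cre-positive group. The authors' deposited table gives the same size, an absolute fold of 5.27 with the direction down. Of the 12659 genes tested, 9 had a difference of -2 or lower, and Gatm ranked 4 from the low end. The size rests on how low Cre-positive array 1 is read: the difference was -1.52 without that array, -3.27 when Cre-positive array 2 was left out and -1.78 when 16 was added to each intensity before taking the logarithm, which damps differences near the bottom of the scale. A single probe set measured Gatm, so no second probe set bears on it. Because the samples are bulk tissue, fewer cells with the transcript and less transcript per cell cannot be told apart.

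The Gatm promoter is shown because Gatm had the largest difference between the groups among the 6 members. The gene lies on chromosome 2, 122594473 to 122611277, and the window covers 250 bases before to 50 bases after a RefSeq start site (GRCm38.p6, minus strand, chr2:122611228-122611527). Capitals mark matches, on either strand, to CCAAT, which the factor NF-Y binds, or to ACGTG, the core of the element bound by hypoxia-inducible factors. No matches to these motifs overlap each other.
Gatm: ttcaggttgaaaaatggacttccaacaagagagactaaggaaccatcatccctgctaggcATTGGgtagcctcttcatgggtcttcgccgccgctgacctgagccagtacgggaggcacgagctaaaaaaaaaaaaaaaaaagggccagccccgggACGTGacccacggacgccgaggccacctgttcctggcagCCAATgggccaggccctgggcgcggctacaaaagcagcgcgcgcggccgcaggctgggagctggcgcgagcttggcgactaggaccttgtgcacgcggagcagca
The ACGTG match starts at position -94 and the CCAAT matches at -190 and -55 relative to the start site. TTCNNNGAA, a palindromic form of the sequence STAT proteins bind, was searched as well and its letters were not in this window, nor in any of the 6 windows of the 5 members in the RefSeq table. It was present in 8.3% of 32851 promoter windows of 300 bases, against 37.4% for CCAAT and 19.6% for ACGTG.

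Gamt, the second enzyme, had no usable signal. Its probe set measured log2 2.52 and 2.51 in the Cre-negative arrays and 2.36 and 2.49 in the Cre-positive arrays, below the filter on dim probe sets. Both Cre-positive values were lower, by a mean of -0.086, but that order was shared by most dim probe sets: of the 18040 at or below the 40th percentile, 89.9% had both Cre-positive arrays below both Cre-negative arrays, at a median of -0.036. The step from guanidinoacetate to creatine therefore has no level that can be compared here.

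**Figure D1:**
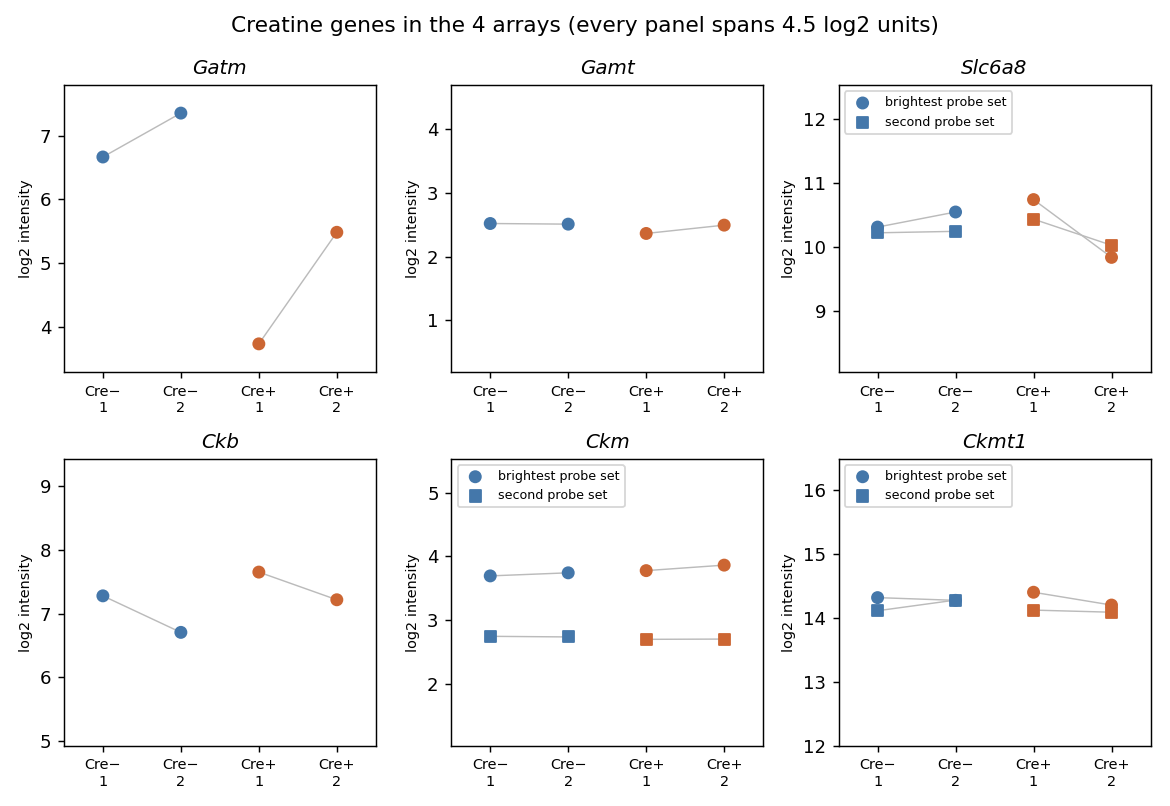
Log2 intensity of the 6 creatine genes in the 4 arrays (horizontal axis: Cre-negative arrays 1 and 2 in blue, Cre-positive arrays 1 and 2 in orange; 1 point per array, squares for a second probe set; grey lines join arrays of 1 group). Gatm lies at 6.66 and 7.35 in the Cre-negative and at 3.73 and 5.48 in the Cre-positive arrays, while the groups overlap for Slc6a8, Ckb and Ckmt1, and Gamt and Ckm stay near the bottom of the scale.

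Slc6a8, through which circulating creatine enters cells, was well above the filter and its groups overlapped. Its brightest probe set measured log2 10.31 and 10.55 in Cre-negative arrays 1 and 2 and 10.74 and 9.84 in Cre-positive arrays 1 and 2. The Cre-positive arrays were thus the highest and the lowest of the 4, with both Cre-negative arrays between them. The difference was -0.14 (limma SE 0.36), from 10.43 ± 0.17 to 10.29 ± 0.64 (SD, n = 2 per group), and it became 0.31 without Cre-positive array 2 and -0.59 without array 1 of that group. The second Slc6a8 probe set placed the arrays in the same order, at 10.22, 10.24, 10.43 and 10.03, over a narrower range, with a difference of -0.0021. The gene lies on chromosome X, 73673133 to 73682502.

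Ckmt1, the mitochondrial creatine kinase of non-muscle tissues, lay at the upper end of the intensity scale, at the 99.6 and 99.5 percentiles of all probe sets. One probe set measured intensities of 20431 and 19833 in the Cre-negative arrays and 21656 and 18843 in the Cre-positive arrays, log2 14.32, 14.28, 14.40 and 14.20. The other measured log2 14.11, 14.28, 14.12 and 14.09 in the same order of arrays. The groups overlapped for both, and the differences were 0.0051 (limma SE 0.12) and -0.090. Probes this bright can respond less than in proportion to the amount of RNA, and whether these did was not tested.

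Ckb, the cytosolic kinase, had a middling signal that leaned higher in the Cre-positive arrays without separating the groups. It measured log2 7.28 and 6.71 in Cre-negative arrays 1 and 2 and 7.65 and 7.22 in Cre-positive arrays 1 and 2. Cre-positive array 2 lay just below Cre-negative array 1, so the groups overlapped. The means were 6.99 ± 0.40 and 7.43 ± 0.31 (SD, n = 2 per group), a difference of 0.44 (limma SE 0.30), which was 0.16 without Cre-negative array 2 and 0.73 without the other array of that group. In both groups the array numbered 1 was the higher one.

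Ckm, the muscle kinase, stayed near the bottom of the scale. Its brighter probe set measured log2 3.69 and 3.74 against 3.78 and 3.86, a difference of 0.10 (limma SE 0.052), with the Cre-positive arrays above the Cre-negative arrays by 0.034 at the nearest values. Its dimmer probe set lay below the filter and ran the other way, 2.75 and 2.74 against 2.70 and 2.70. Markers of striated muscle were as dim in 7 of 8 genes (log2 4.01 or lower in every array), and the exception, the actin gene Acta1, measured 9.63 and 7.46 in the Cre-negative and 9.89 and 7.73 in the Cre-positive arrays.

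The promoters of Ckb and Ckmt1 are shown to set the kinases that the epithelium expresses beside Gatm. They come from RefSeq (GRCm38.p6), with Ckb on the minus strand of chromosome 12 (window chr12:111672289-111672588) and Ckmt1 on the plus strand of chromosome 2 (window chr2:121357526-121357825, the first of its pair of start sites in the table). Capitals mark CCAAT and TATAAA, the sequence of the TATA box, on either strand, and the matches do not overlap.
Ckb: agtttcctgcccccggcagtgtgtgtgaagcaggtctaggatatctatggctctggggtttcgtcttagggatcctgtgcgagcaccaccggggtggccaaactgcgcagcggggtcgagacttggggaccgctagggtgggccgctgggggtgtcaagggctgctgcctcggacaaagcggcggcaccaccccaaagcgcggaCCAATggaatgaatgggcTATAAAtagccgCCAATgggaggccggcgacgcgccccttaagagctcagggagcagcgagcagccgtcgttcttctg
Ckmt1: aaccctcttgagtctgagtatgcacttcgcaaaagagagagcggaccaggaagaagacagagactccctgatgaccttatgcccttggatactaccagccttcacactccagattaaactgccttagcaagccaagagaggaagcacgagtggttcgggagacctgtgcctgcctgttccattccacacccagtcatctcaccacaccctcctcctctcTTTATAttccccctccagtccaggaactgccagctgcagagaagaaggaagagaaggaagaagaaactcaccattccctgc
Ckb holds TATAAA at position -28 and CCAAT at -46 and -16. The Ckmt1 window shown holds TATAAA only as its reverse complement, TTTATA, at -31. The second Ckmt1 window, not shown, held no TATAAA on either strand and the reverse complement of CCAAT at -242. TATAAA occurred on either strand in 13.6% of all windows, and neither window shown held ACGTG.

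Read over all members, the 5 genes above the filter (7 of the 9 probe sets) lay on both sides of 0. The Cre-positive mean was higher in 3 and lower in the rest, and the median was 0.0051 beside -0.053 over all 12659 genes tested. In limma's fit across all genes 0 members passed an adjusted p of 0.05, as did 0 of all genes (0% called). In the same fit 1 member, Gatm, was under an unadjusted p of 0.05, beside 8.51% of all genes that were lower at that threshold. The count of 1 is a description and no test of Gatm, because the low Gatm signal in these same arrays led to the choice of genes. The groups did not overlap and the Cre-positive arrays were lower in 1 member tested (Gatm) beside 34.7% of all genes tested, and higher in 1 (Ckm) beside 13.5%. These shares describe the members only, since they were chosen with this contrast known. With 2 arrays a group, the smallest two-sided p of an exact permutation test is 0.333.

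**Figure D2:**
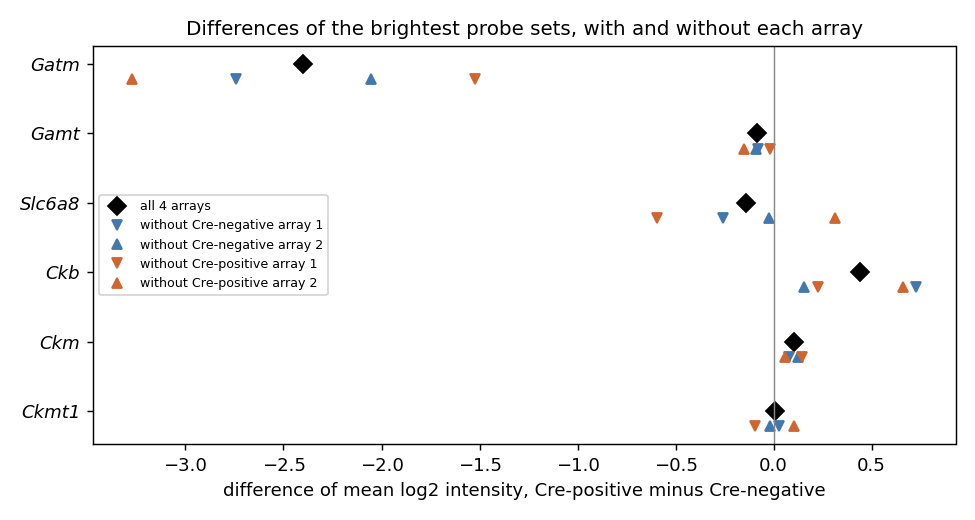
Difference in mean log2 intensity, Cre-positive minus Cre-negative (horizontal axis), for the brightest probe set of each gene, with all 4 arrays (diamonds) and without each array in turn (triangles, blue for a Cre-negative and orange for a Cre-positive array left out). Gatm, whose groups do not overlap and whose sign could therefore not change, stays between -3.27 and -1.52. Slc6a8 and Ckmt1 fall on both sides of 0.

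The genes whose pattern over the 4 arrays lay closest to that of Gatm were Tifa, Fut9 and Reg3b, by Euclidean distance between log2 values centred on each gene's own mean. Tifa, an adaptor in NF-kappaB signalling, lay at a distance of 0.55 and measured log2 9.82 and 10.19 in the Cre-negative and 7.11 and 8.15 in the Cre-positive arrays. Fut9, a fucosyltransferase, lay at 0.59 with values of 5.59, 5.57, 2.63 and 3.97, so that its Cre-positive array 1 was at the bottom of the scale. Reg3b, a secreted C-type lectin of the gut, lay at 0.74 with values of 14.20, 14.55, 11.07 and 12.03. All 3 were lowest in Cre-positive array 1, as Gatm was, which follows from choosing them by closeness to Gatm. The brightest Stat3 probe set was lowest in Cre-positive array 2. With 4 arrays the measure of likeness decides the names: ranked by Pearson correlation, 0 of these 3 were among the first 3, and 136 genes had a correlation above 0.99 with Gatm.

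**Figure D3:**
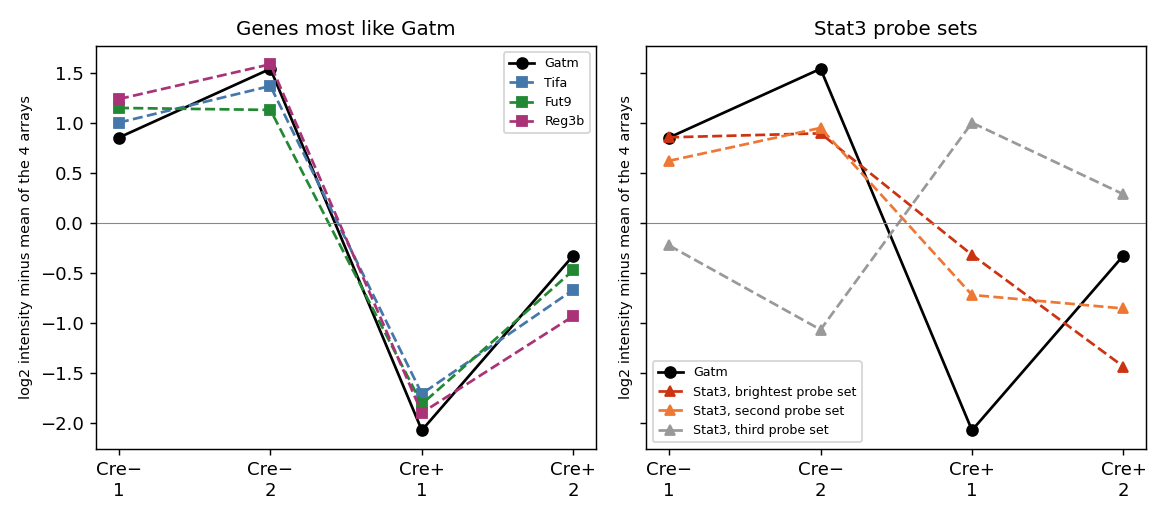
Log2 intensity minus the mean of the 4 arrays (vertical axis) by array, for Gatm with its 3 closest genes (left) and for Gatm with 3 Stat3 probe sets (right). Gatm is lowest in Cre-positive array 1, as are Tifa, Fut9 and Reg3b, which were chosen by closeness to Gatm. The brightest Stat3 probe set is lowest in Cre-positive array 2 and another Stat3 probe set is higher in both Cre-positive arrays.

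Genes that supply or share the creatine pathway were taken from 6 lists, and 0 genes of any list passed in limma after adjustment over all genes. Among other carriers and kinases of the energy shuttle, 12 of 18 genes were tested, of which 5 had a higher and 7 a lower mean (median -0.13). Of these, 1 was under an unadjusted p of 0.05 in limma, beside 11.1% of all genes tested at that threshold in either direction. It was the dim adenylate kinase gene Ak1 (difference -0.093, near log2 3 in every array). Between the 40th and 60th percentiles of intensity, where Ak1 lay, 57.2% of probe sets were lower in both Cre-positive arrays. Slc16a12, a monocarboxylate-family carrier that lets creatine pass membranes, measured log2 6.33 and 5.55 in the Cre-negative and 3.89 and 5.60 in the Cre-positive arrays. It was low in Cre-positive array 1 alone, and its difference of -1.20 (SE 0.71) did not pass (limma adjusted p = 0.559). Ckmt2, the mitochondrial kinase of muscle, differed by -0.41 (7.14 and 6.70 against 6.99 and 6.04) and the mitochondrial adenylate kinase Ak4 by -0.31, both with overlapping groups. The porins Vdac1, Vdac2 and Vdac3, channels of the outer mitochondrial membrane, differed by 0.07, 0.14 and 0.06. The adenine nucleotide carriers Slc25a4 and Slc25a5, which exchange ATP for ADP across the inner membrane, differed by -0.24 and 0.02, and 4 of the 8 Slc25a5 probe sets ran the other way. The groups overlapped for all 5 of these genes, which were picked after their values were seen.

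The substrates of Gatm are arginine and glycine. Of the arginine and ornithine genes, 14 of 18 were tested, 7 higher and 7 lower (median 0.02), with 0 under an unadjusted p of 0.05 in limma. Slc7a9, the light subunit of the apical transporter of basic amino acids and cystine, measured log2 7.40 and 7.37 in the Cre-negative and 7.01 and 6.49 in the Cre-positive arrays. That difference of -0.64 (SE 0.24) did not pass (limma adjusted p = 0.479). The arginine carrier Slc7a1 differed by 0.35 and the argininosuccinate synthase Ass1 by 0.33, with overlapping groups. Ass1 was dim, at log2 3.02 and 3.03 in the Cre-negative and 3.78 and 2.94 in the Cre-positive arrays. It was thus higher in Cre-positive array 1 alone. Of the serine and glycine genes, 9 of 13 were tested, 2 higher and 7 lower (median -0.25), again with 0 under an unadjusted p of 0.05 in limma. Shmt1, which makes glycine from serine in the cytosol, measured 9.39 and 9.62 against 8.82 and 9.25, a difference of -0.47 (SE 0.21, limma adjusted p = 0.516). The lysosomal and brush border amino acid carrier Slc36a1 differed by -0.39 and the glycine transporter Slc6a9 by 0.39, and in both the groups did not overlap. In this list 4 genes lay lower in both Cre-positive arrays, beside 34.7% of all genes tested, and 1, Slc6a9, lay higher in both, beside 13.5%.

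The methyl group that Gamt uses comes from the methionine cycle. In it 11 of 17 genes were tested, 2 higher and 9 lower (median -0.08), with 1 under an unadjusted p of 0.05, a share near the 11.1% of all genes. That gene was Mtrr, which keeps methionine synthase active, at log2 5.41 and 5.51 in the Cre-negative and 4.98 and 4.99 in the Cre-positive arrays (difference -0.48, SE 0.10, limma adjusted p = 0.298). The betaine-homocysteine methyltransferases Bhmt2 (-0.43) and Bhmt (-0.33) were dim, at log2 4.38 or lower in every array. Among the other SLC6 transporters 7 of 15 were tested, 1 higher and 6 lower (median -0.19). Slc6a19, a transporter of neutral amino acids (difference -0.19), was dim. It lay between the 40th and 60th percentiles of intensity, where 57.2% of probe sets were lower in both Cre-positive arrays. It was the 1 gene of these under an unadjusted p of 0.05 in limma, beside 11.1% of all genes. Slc6a4, the serotonin transporter, had a larger difference that was not under that threshold and measured 6.81 and 6.82 against 5.86 and 6.49 (difference -0.65, SE 0.28, limma adjusted p = 0.506). Slc6a20a, a transporter of imino acids, was low in Cre-positive array 1 alone, at 5.81 and 5.81 in the Cre-negative and 4.38 and 5.97 in the Cre-positive arrays, and the noradrenaline transporter Slc6a2 differed by -0.52 with overlapping groups. The taurine transporter Slc6a6, close kin of Slc6a8, measured 10.21 and 10.44 against 10.76 and 10.57. Both Cre-positive arrays lay higher, an order shared by 13.5% of all genes tested. Of the 4 Slc6a6 probe sets, 1 above the filter ran the other way. Slc6a6 was the only gene of the 7 with a higher mean and was picked after its values were seen.

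Hypoxia-inducible factors are known to act on creatine kinase genes in gut epithelium. Genes of the hypoxia response, including genes of the factors themselves, were therefore set beside the kinases. All 14 genes of the hypoxia list were tested, 9 higher and 5 lower (median 0.10), with 0 under an unadjusted p of 0.05 in limma. Set against the Cre-negative mean, Cre-positive array 1 had a list median of 0.38 and array 2 one of -0.12. Ankrd37 differed by 0.75 (SE 0.40, limma adjusted p = 0.544), the glucose transporter Slc2a1 by 0.54 and the stress gene Ndrg1 by 0.48. Slc2a1 measured log2 12.76 and 12.07 in the Cre-negative and 13.59 and 12.32 in the Cre-positive arrays, which puts the arrays in the same order as Ckb. That likeness of order was noticed after the values were seen and was not tested. It was not particular to the hypoxia list: the muscle actin gene Acta1 had the same order, and Ankrd37 did not. Over the 4 arrays 59 genes correlated with Ckb above 0.99. How many of all genes share this order was not counted.

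**Figure D4:**
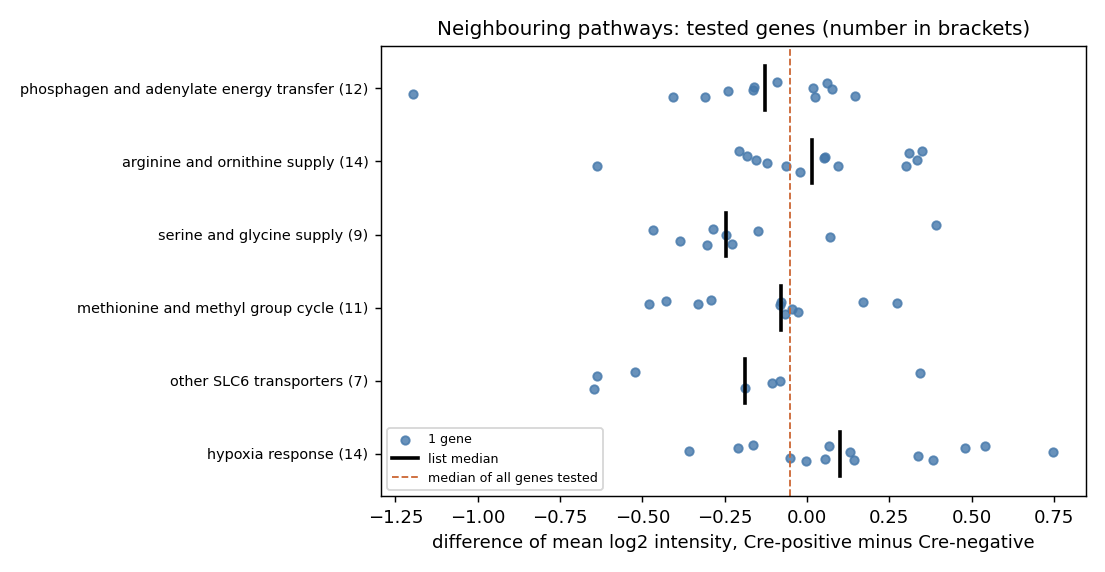
Difference in mean log2 intensity, Cre-positive minus Cre-negative (horizontal axis), of every tested gene in 6 lists around the creatine pathway (1 point per gene, black bars for list medians, dashed line for the median of -0.053 over all genes tested). The list medians lie between -0.25 and 0.10, and Slc16a12 at -1.20 is farthest from 0.

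Markers of other cells differed between the groups in part. Of 10 leukocyte markers, 8 passed the filter and the Cre-positive mean was the higher one in all 8, while Cd79a and Itgam were dim. Their summed intensity was 911 and 1015 in the Cre-negative arrays and 3035 and 1520 in the Cre-positive arrays. It was highest in Cre-positive array 1, where Gatm was lowest, mainly through the neutrophil genes S100a8 (log2 9.70 there and 5.91 or lower elsewhere) and S100a9. Surface colonocyte markers had a summed intensity of 82552 and 83123 against 112422 and 95385, with 7 of 8 higher, and pan-epithelial markers 158078 and 153618 against 192453 and 156238, with 8 of 9 higher. Smooth muscle markers were dim, at log2 3.34 or lower in every array, with 3 of 9 above the filter and summed intensities of 60.9 and 61.6 against 56.5 and 58.5. Neuron and glia markers passed in 4 of 9 genes (63.9 and 68.8 against 61.3 and 59.1), and the summed fibroblast markers, 4 of 7 above the filter, were 309 and 304 against 503 and 408, through Vim. Smooth muscle and most neuron and glia markers were dim, and lower values in both Cre-positive arrays are common there. They were found in 89.9% of probe sets up to the 40th percentile and in 57.2% between the 40th and 60th. The part of any of these cell types in the Gatm and Ckb values was not tested.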

How the data were processed

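Total RNA of colon epithelium was labelled as biotinylated cRNA for Affymetrix arrays, per the labels' protocols. The deposited intensity values were GC-RMA values, per the file headers and the submitters' processing notes, on the linear scale. A second deposited table held rounded intensities, log2 values relative to the Cre-negative mean, an absolute fold (a ratio) and p-values by the authors, whose test is not named in the header. The deposited log2 values equalled those recomputed here to within 0.00050. How the epithelium was separated is not given in the sources used here.

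Intensities were taken as log2. Each gene was represented by its probe set of highest mean, genes whose mean did not exceed the 40th percentile (log2 2.81, intensity 6.99) were left out, and 12659 genes entered limma 3.58.1 under R 4.3.3 (lmFit, then eBayes with an intensity trend, two-sided, Benjamini-Hochberg over all genes, threshold 0.05, 2 residual degrees of freedom). Differences are Cre-positive minus Cre-negative, and SE is moderated. The fit was also run on simulated data with the same spread for every gene. The spread differs between genes in these arrays, so that run cannot show how the fit behaves on them. Probe sets were named through a given annotation table, updated through gene IDs for 34741 of 34945. Genes named were the members, the 3 genes of largest difference in each list and the 3 nearest to a member whose range was at least 1 on the log2 scale, and others are marked in the text or serve as markers. Members and lists were chosen with earlier results of these data known. The number of arrays limits precision. Alternatives were the filter, trend, centring, an added 16, other probe set rules, the replicate number as a block, the authors' p-values and each array left out. Promoters are from RefSeq. List genes with no probe set naming them alone were not analysed here.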

Additional observations from a re-analysis of the deposited data

How the results depend on the processing

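Gatm, Ckb and Ckm kept their direction with median centring, with 16 added to the intensities and without any 1 array. For Gatm and Ckm this was fixed in advance: their groups did not overlap, so neither adding 16 nor leaving out 1 array could change the sign. The groups of Ckb overlapped, so its sign could have changed. Median centring hardly moved the values (Gatm from -2.3987 to -2.3995). A mean over probe sets could not change these genes, which have 1 probe set above the filter each, and gave no value for Gamt, which has none. Gamt, whose groups did not overlap either, also kept its direction, which most dim probe sets share. Leaving out 1 array gave -3.27 to -1.52 for Gatm, -0.15 to -0.021 for Gamt, 0.16 to 0.73 for Ckb, 0.059 to 0.14 for Ckm, -0.59 to 0.31 for Slc6a8 and -0.095 to 0.11 for Ckmt1. The last 2 ranges cross 0. Slc6a8 changed sign without Cre-positive array 2 (0.31), and Ckmt1 did so as the mean of its probe sets (-0.043), without Cre-negative array 2 (-0.016) and without Cre-positive array 1 (-0.095). Ckm was 0.047 with 16 added to the intensities, a change larger than the spread between replicates. Limma called 0 genes under every other filter, prior, scaling and probe set rule tried and without any 1 array. The authors' p-values, adjusted here, called 3 genes, all with a p deposited as 0, and none of them a member or in a list. With the replicate number as a block the fit called 0 genes. Each number occurs once per group, so a block cannot change the differences, and their agreement shows nothing. The deviations of same-numbered arrays correlated at 0.42 over genes, but with 2 pairs and no label that ties them the numbers were not taken as pairs. At an unadjusted p under 0.05 the numbers, 322 higher and 1077 lower, ranged with the setting from 114 (without Cre-negative array 2) to 1182 (without Cre-positive array 2) and from 259 (60th percentile filter) to 5319 (no filter), and with median centring were 329 and 610.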
